A study of Mus musculus with 78 samples.

Results

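Gene expression at postnatal day 14 (P14) was compared between brains labelled Lis1 ko/cko (3 arrays) and wild-type brains of mixed background A (3 arrays), 6 of the 78 arrays of the series. The 6 arrays were chosen by their labels. Mixed A was the control because it shares the mutant's side of the first principal component of the 24 P14 arrays. The wild type of the inbred strain 129s6 lies on that side as well, so this reason does not single out mixed A. Each array held biotin-labelled total RNA of brain, and the labels name neither the region nor the number of animals behind a sample. Lis1 ko/cko mice carry a null allele of Lis1 (gene symbol Pafah1b1) over a conditional allele. The labels name neither a Cre driver nor the cells in which the conditional allele was cut. The comparison groups used beside them had 3 arrays each. At P14 they were Lis1 ko/+, which carries the null allele over a wild-type one, the 129s6 inbred wild type and a mixed B wild type. At birth (P0) they were Lis1 ko/cko and mixed A. Ndel1 ko/cko, Ndel1 ko/+ and a mix-labelled Ndel1 ko/+, also with 3 arrays each, made up the rest of the P14 arrays. These Ndel1 mutants share in the pooled spread of the P14 arrays and in the ranges given for other P14 arrays. The replicates are labelled biological, and p-values measure only the spread between these samples. The series asks whether mutations in members of the LIS1 complex alter brain expression alike or differently.

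LIS1 binds the motor protein dynein and holds it on microtubules under load. Neurons need this to move the nucleus and the centrosome during migration, and dividing progenitors need it to orient the spindle. Loss of a copy causes lissencephaly in humans, with a smooth and disordered cortex. By P14 migration into the mouse cortex is over, and the brain is forming synapses, myelinating axons and expanding its glia.

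Values are deposited log2 RMA values, so a difference of 1 is a change of 2-fold. Differences are given as the mean of the 3 mutant arrays minus the mean of the 3 mixed A arrays ± the standard error of a limma fit to all 24 P14 arrays, and a gene was called at a Benjamini-Hochberg adjusted p under 0.05. Of 12296 genes tested 1709 were called, 13.9%, with 706 higher (5.74%) and 1003 lower (8.16%) in the mutant, while 3616 genes (29.4%) had an unadjusted p under 0.05. The 3 mutant arrays lay entirely above or below the 3 mixed A arrays in 3600 genes (29.3%), and 1384 of the 12296 genes were both called and without overlap (11.3%). These counts rest on the spread pooled over all 8 P14 groups. With only the 6 arrays in the fit limma called 16 genes (0.13%), 6 higher (0.0488%) and 10 lower (0.0813%), while 3237 had an unadjusted p under 0.05. All 16 are among the 1709: Stk25, Xaf1, Firre, Pnpla7, Pfn1 and the clone C920006O11Rik were the 6 genes higher, and Ttr, Ecrg4, Krt12, Kcnj9, Aox4, Calml4, Prr32, Aqr, Pak6 and Pafah1b1 the 10 genes lower. Firre, Pnpla7, Ttr, Kcnj9, Aox4, Prr32 and Aqr were called in the same direction against both other wild types, and the rest of the 16 were not. Pfn1 differed by 0.05 from the inbred wild type and by -0.11 from mixed B, C920006O11Rik by 0.07 and 0.02, and Pak6 by 0.05 and -0.32. The number of arrays limits the precision of every value.

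Neuronal and astrocyte genes were high on all 6 arrays, with Snap25 between 12.52 and 12.62 and Slc1a2 between 12.31 and 12.57 on the log2 scale. The 3′ minus 5′ difference of the actin control was 0.56, 0.54 and 0.63 (log2) on the mutant arrays and 0.96, 0.50 and 0.55 on the mixed A arrays. The actin ranges overlap between the groups. Xist lay between 4.52 and 4.89 on all 6 arrays, while the Y-linked Uty read 5.63, 5.96 and 6.21 on the mutant arrays and 6.41, 6.27 and 6.29 on mixed A, without overlap and without a call. The first component held 57.6% of the variance of the P14 arrays, with mutant scores of 25.0, 29.1 and 21.1, and all 3 mixed A scores lay below the lowest of these. On the second component, which held 10.7%, mutant replicates 1 and 2 scored -31.2 and -27.9, apart from replicate 3 at -4.1 and from mixed A at 4.5, 4.7 and 4.7. Mutant replicate 3 is therefore given separately throughout.

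Pafah1b1, the targeted gene, read 10.31, 10.42 and 10.34 on the mutant arrays and 10.86, 10.81 and 10.88 on the mixed A arrays. All 3 mutant arrays lay below all 3 controls, and replicate 3 lay with the others. The difference was -0.49 ± 0.08 (limma adjusted p = 0.00145), a level 1.4-fold lower, and it was called whichever of the 6 arrays was left out. Pafah1b1 has 5 probe sets on the array. The 3 bright ones differed by -0.49, -0.54 and -0.45, and the 2 dim ones, with mixed A means of 5.17 and 3.94, by 0.35 and 0.13. In Lis1 ko/+ the gene averaged 10.21 ± 0.10 (SD, n = 3), so the ko/cko arrays were not lower than those of ko/+ (difference 0.15 ± 0.08, adjusted p = 0.263). The labels do not say which exons the alleles remove, nor whether a probe set lies in them. The fold is therefore a level of the transcript as measured and does not check how much functional LIS1 is left. The wild types differed too, at 10.85 ± 0.03 in mixed A, 10.64 ± 0.11 in inbred and 10.48 ± 0.01 in mixed B, and against mixed B the mutant's difference on this probe set was -0.12 ± 0.08 (adjusted p = 0.204). The mutant's mean lay further below that of mixed B on the other bright probe sets, by a difference of -0.57 on the one that read 10.98 ± 0.08 in mixed B and -0.34 on the one that read 9.37 ± 0.09.

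The partners of LIS1 were not called. Ndel1 (0.09 ± 0.06) and Nde1 (-0.19 ± 0.12), which couple LIS1 to dynein, did not pass the test, nor did Ywhae (-0.07 ± 0.04), whose product protects phosphorylated NDEL1, the microtubule protein gene Dcx (0.16 ± 0.10) or the dynein heavy chain Dync1h1 (0.04 ± 0.13). The median of 38 measured genes of the LIS1, dynein and migration list was 0.01 against -0.02 over all genes. Of these 38 genes 1 rose and 4 fell, a share near the 13.9% called over all genes. The 4 were Pafah1b1, the dynein light chains Dynll1 (-0.28 ± 0.06) and Dynll2 (-0.30 ± 0.08), and the dynactin subunit Dctn3. The gene that rose was Cdk5 (0.22 ± 0.07), the kinase that phosphorylates NDEL1 in neurons. Without mutant replicate 1, 2 or 3 the list held 1, 2 and 11 calls, and without mixed A replicate 1, 2 or 3 it held 3, 2 and 2. In the Reelin pathway 1 of 13 genes rose and 1 fell, also near the 13.9% over all genes. They were the exchange factor gene Rapgef1 at 0.41 ± 0.12 and the receptor gene Vldlr at -0.29 ± 0.09. Neither Reelin call was made without mutant replicate 1 or 2 or mixed A replicate 3, and 1 was made without mixed A replicate 2. Among 20 genes on either side of Pafah1b1 on chromosome 11, 21 were tested. Of these Mettl16, next to Pafah1b1, fell by 0.91 on the log2 scale (5.31, 5.63 and 6.28 against 6.49, 6.69 and 6.77), as did Ovca2 (-0.70 ± 0.21), and Sgsm2 (0.33 ± 0.09), Smg6 (0.43 ± 0.11) and Prpf8 (0.27 ± 0.07) rose. These 5 calls of 21 stand beside 13.9% over all genes. With an array left out in turn Mettl16 was called in 5 of 6 fits, Sgsm2, Smg6 and Prpf8 in 3 and Ovca2 in 1.

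The 3 mutant arrays carried changes of unequal size. The median absolute difference from the mixed A mean over all tested genes was 0.19 on replicate 1, 0.20 on replicate 2 and 0.10 on replicate 3. More than 2-fold from that mean lay 277, 235 and 33 genes. A mixed A array set against the mean of the other 2 had a median absolute difference of 0.10, 0.09 and 0.09, with 46, 11 and 21 genes beyond 2-fold. Replicate 3 therefore lay about as far from the mixed A mean as the wild-type arrays lay from each other. Over the called genes the median shift in the direction of the call was 0.57, 0.58 and 0.20. Replicate 3 had the sign of the other 2 in 1643 of the 1709 called genes and the opposite sign in 66. These genes were called on the mean of all 3 mutant arrays. That favours a shared sign and a shift in the direction of the call, so nothing is read from either. Replicate 3 lay between the mixed A mean and both other arrays in 1443 of the called genes, and reached at least the smaller of the other 2 shifts in 200. Across genes the differences of replicates 1 and 2 correlated at 0.85, those of replicates 1 and 3 at 0.44 and of 2 and 3 at 0.47, a description over 12296 genes that share the mixed A mean.

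**Figure D1:**
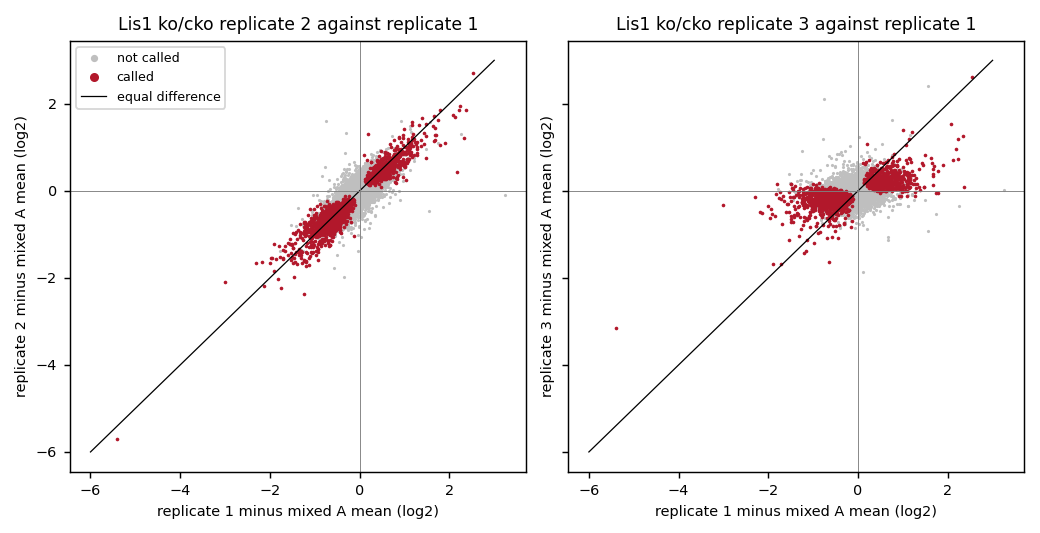
Differences from the mean of the 3 mixed A arrays (log2) over the tested genes, for Lis1 ko/cko replicate 2 (left) and replicate 3 (right) against replicate 1, with called genes in red and the line of equal difference in black. Replicate 2 follows the line, with a correlation of 0.85 across genes, while the called genes of replicate 3 lie near 0, with a median shift of 0.20 against 0.57 for replicate 1. Genes were called on the mean of all 3 mutant arrays, which favours shifts in the direction of the call.

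The number of calls followed the arrays in the fit. Without mutant replicate 3 limma called 3242 of 12320 genes (26.3%), among them 1669 of the 1709. Without mutant replicate 1 or 2 it called 251 and 261 genes. Leaving out mixed A replicate 1, 2 or 3 left 1031, 815 and 811. Called in all 6 of these fits were 179 genes, 69 higher and 110 lower. They include Pafah1b1, Ttr, Stk25, Fkbp5, Mt1, Mt2, Cdkn1a, Top2a, Mki67, Arc and Kcnj9.

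**Figure D2:**
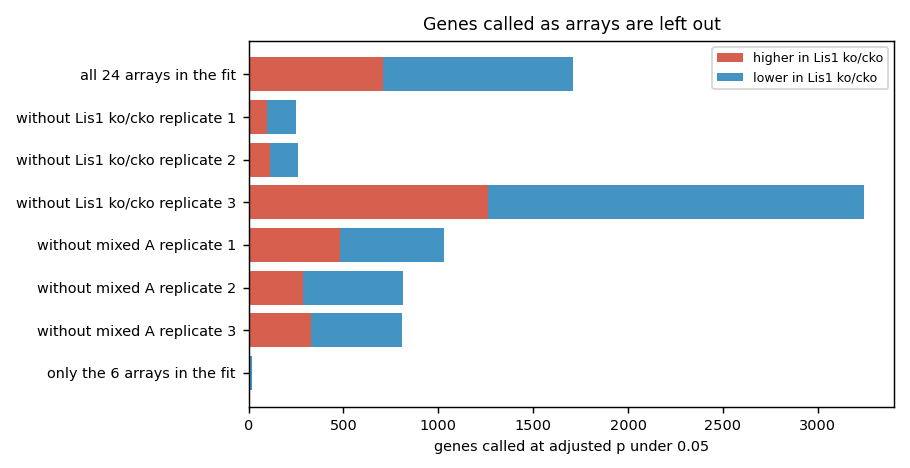
Genes called in Lis1 ko/cko minus mixed A at P14, higher in red and lower in blue, with all 24 P14 arrays in the fit, with each of the 6 arrays left out, and with only the 6 arrays in the fit. The count is 1709 with all arrays, 3242 without mutant replicate 3, 251 and 261 without mutant replicate 1 or 2, and 16 with 6 arrays.

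The largest rises and falls are given among called genes whose arrays do not overlap, with clones and predicted genes passed over. The clone C920006O11Rik (1.79) and the predicted gene Gm34996 (1.37) would otherwise stand among the rises and the clone A830029E22Rik (-1.33) among the falls. The largest rise was in Stk25, a kinase with a role in neuronal polarity. It read 9.26, 9.44 and 9.35 in the mutant against 6.33, 7.32 and 6.52, a difference of 2.63 ± 0.17 (adjusted p = 5.25e-10), the same on all 3 mutant arrays. The P14 groups fell into a high and a low set for this gene. Lis1 ko/+ averaged 6.78 and the inbred wild type 6.83, while mixed B wild type averaged 9.48, so that against mixed B the difference was -0.13. Xaf1, an interferon-induced gene of cell death, read 6.48, 6.21 and 5.44 against 4.41, 4.11 and 4.23 (1.79 ± 0.24, adjusted p = 0.000349). The other 18 P14 arrays held Xaf1 between 5.05 and 6.50, so mixed A was the lowest group and the mutant lay within the range of the rest. Spaca6 read 7.73, 7.37 and 6.25 against 5.51, 5.47 and 5.55 (1.60 ± 0.25, adjusted p = 0.00124). Replicates 1 and 2 lay above every other P14 array, whose highest value was 6.55.

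Further rises included Gpnmb, a glycoprotein of phagocytic cells, at 7.15, 6.64 and 4.88 against 4.75, 4.80 and 4.81 (1.44 ± 0.31, adjusted p = 0.00617), and Tlr7, an endosomal receptor for RNA, at 6.24, 6.30 and 4.72 against 4.58, 4.56 and 4.59 (1.18 ± 0.25, adjusted p = 0.00565). In both genes replicate 3 lay just above the highest control. Agt, the angiotensin precursor made by astrocytes, read 10.35, 9.55 and 9.05 against 8.30, 8.50 and 8.55 (1.20 ± 0.22). Ccn2, a matricellular protein of the deepest cortical layer, read 10.19, 9.68 and 9.17 against 8.71, 8.36 and 8.53 (1.15 ± 0.19). Cdt1, which licenses replication origins, read 7.33, 6.92 and 6.21 against 5.71, 5.42 and 5.77 (1.19 ± 0.22), above every other P14 array on all 3. Irs4, an insulin receptor substrate, read 6.93, 5.19 and 5.72 against 4.94, 4.70 and 4.62 (1.20 ± 0.28), with replicate 1 the highest. Gpnmb, Tlr7 and Irs4 entered the test through the mutant group alone, every other P14 group averaging below the filter of 5.253, so their levels in the controls are those of dim probe sets and the size of their rise is uncertain. Of 52 genes tested through the mutant alone 22 were called, beside 13.9% over all genes. They passed the filter because the mutant mean was high, which favours a called rise, so nothing is read from this count. Sdc4 (1.60 ± 0.38) and Pla2g4e (1.28 ± 0.31) rose against mixed A but differed by -0.48 and -0.01 from the inbred wild type and by -0.20 and -0.14 from mixed B.

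The largest fall was in Ttr, which encodes transthyretin, the thyroid hormone carrier made in bulk by the choroid plexus. It read 7.95, 7.66 and 10.21 in the mutant against 13.18, 13.49 and 13.39, a difference of -4.75 ± 0.90 (adjusted p = 0.00319), 26.8-fold lower. All 3 mutant arrays lay far below all 3 controls, with replicate 3 between. Ttr also varied elsewhere at P14. It read 6.94, 13.04 and 8.29 in Ndel1 ko/cko, 11.38 on mixed B replicate 2 and 11.88 or more on every other array outside the mutant. Ecrg4, a secreted peptide gene also high in choroid plexus, read 5.86, 5.91 and 6.09 against 7.32, 8.15 and 7.81 (-1.80 ± 0.44, adjusted p = 0.0101), and lost its call in 3 of 6 fits with an array left out. Kcnj9, a subunit of G protein-gated potassium channels, read 7.96, 7.91 and 8.36 against 9.17, 9.65 and 9.66 (-1.42 ± 0.24, adjusted p = 0.00192). Krt12 fell against mixed A (-1.59 ± 0.36), whose mean of 8.84 was the highest of the P14 groups, and differed by 0.48 from the inbred wild type.

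Genes of blood vessels, matrix and oligodendrocytes were among the further falls. Aplnr, the apelin receptor of endothelium, read 6.12, 6.67 and 7.82 against 8.28, 8.33 and 8.28 (-1.43 ± 0.27). Tnc, which encodes tenascin C of the perinatal matrix, read 5.49, 5.92 and 6.84 against 7.58, 7.47 and 7.33 (-1.38 ± 0.23), and the vascular gene Tmem100 read 6.07, 6.21 and 7.0 against 7.56, 7.95 and 7.80 (-1.34 ± 0.21). The proteoglycan-cleaving protease Adamts4, in the brain a gene of oligodendrocytes, read 6.56, 6.04 and 7.29 against 7.90, 7.99 and 8.16 (-1.39 ± 0.24). Prr18 (-1.46 ± 0.35), the purine enzyme gene Pnp (-1.34 ± 0.24), Sh3d19 (-1.31 ± 0.30) and Thap2 (-1.31 ± 0.25) fell as well. In Sh3d19 replicate 3 read 7.55, next to the controls at 7.58, 7.62 and 7.66. Of these 28 named genes, 14 rises and 14 falls, 18 had mutant replicates 1 and 2 outside the range of all 21 other P14 arrays, and 4 had all 3. Over all tested genes these shares were 20.1% and 5.36%, and nothing is read from the comparison, since the 28 were chosen by the size of their difference.

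**Figure D3:**
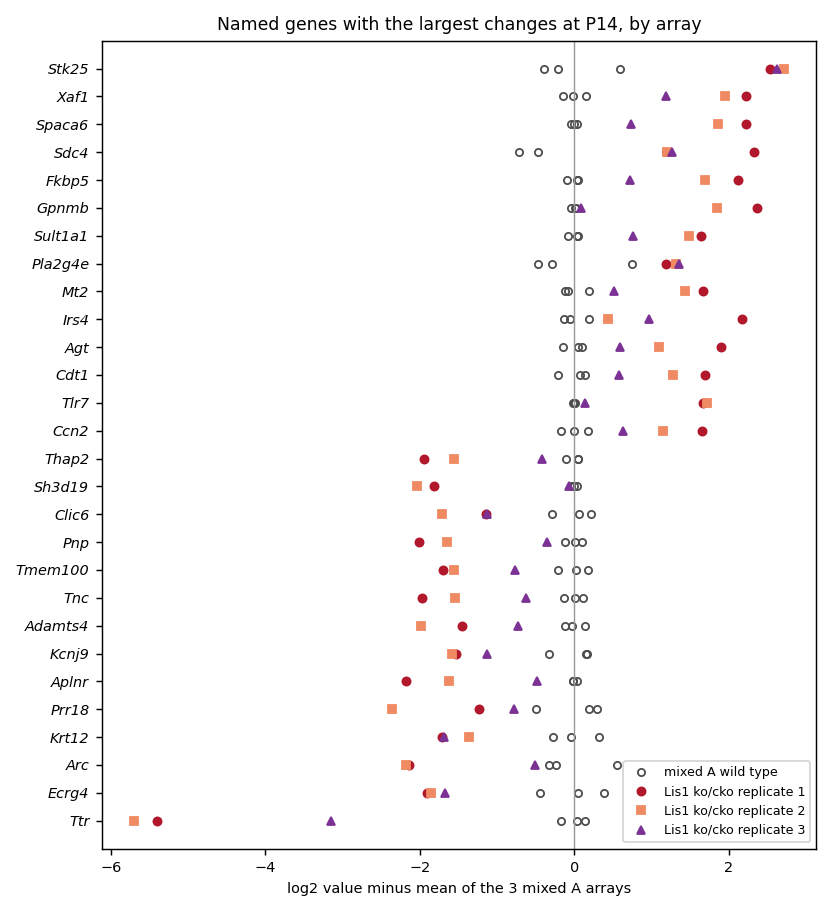
Log2 value minus the mean of the 3 mixed A arrays for the 14 named genes with the largest rises and the 14 with the largest falls, clones and predicted genes passed over, with mutant replicates 1, 2 and 3 as filled circles, squares and triangles and mixed A arrays as open circles. In Stk25, Ecrg4 and Krt12 the 3 mutant arrays lie together, while in Gpnmb, Tlr7 and Sh3d19 replicate 3 lies with mixed A.

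Genes induced by glucocorticoids and by stress stood higher in the mutant. Of 14 tested 6 rose and none fell, against 5.74% and 8.16% of all genes, and the median difference was 0.66. By array the median was 1.17, 0.79 and 0.15. The count was 10 without mutant replicate 3, between 5 and 7 without any other of the 6 arrays, and 0 with only the 6 arrays in the limma fit, where 9 had an unadjusted p under 0.05. Fkbp5, a co-chaperone that dampens the glucocorticoid receptor and is induced by it, read 10.11, 9.68 and 8.71 against 8.03, 8.04 and 7.90 (1.51 ± 0.26, adjusted p = 0.00166). Replicates 1 and 2 exceeded every other P14 array, the highest of which read 8.92. Sult1a1, a sulfotransferase, read 9.06, 8.91 and 8.19 against 7.46, 7.34 and 7.47 (1.29 ± 0.24, adjusted p = 0.00319). Cdkn1a, the cell cycle inhibitor p21, read 9.58, 9.23 and 8.78 against 8.39, 8.06 and 7.99 (1.05 ± 0.18, adjusted p = 0.0018), with all 3 mutant arrays above every other P14 array. Tsc22d3, which encodes the glucocorticoid-induced leucine zipper, read 10.32, 9.86 and 9.34 against 9.17, 8.98 and 8.95 (0.80 ± 0.18). Pdk4 (0.70 ± 0.24), Zbtb16 (0.63 ± 0.23), Sgk1 (0.34 ± 0.16) and Per1 (-0.07 ± 0.18) were not called. In Pdk4 replicates 1 and 2 read 7.21 and 7.01 and replicate 3 5.74, within the controls at 6.29, 5.85 and 5.74.

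The metallothioneins, small proteins that bind zinc and copper, rose as a pair. Mt1 read 13.12, 12.94 and 12.26 against 11.92, 11.66 and 11.70 (1.01 ± 0.15, adjusted p = 0.000748), and Mt2 12.24, 12 and 11.08 against 10.76, 10.49 and 10.45 (1.21 ± 0.22, adjusted p = 0.00271). Their adjacent promoters are shown because both genes are known to be induced by glucocorticoids and, through the metal response element, by zinc. The sequences are the 250 bases before the start that RefSeq lists on GRCm38.p6, plus strand, at chr8:94178839-94179088 for Mt1 and chr8:94172368-94172617 for Mt2. Capitals mark the core TGCACNC or TGCGCNC on either strand, with 1 match in Mt1 and 3 in Mt2. Of 32817 such windows 21.4% hold at least 1 match and 1.26% at least 3. A match describes the letters alone and is no evidence of a bound site.
Mt1: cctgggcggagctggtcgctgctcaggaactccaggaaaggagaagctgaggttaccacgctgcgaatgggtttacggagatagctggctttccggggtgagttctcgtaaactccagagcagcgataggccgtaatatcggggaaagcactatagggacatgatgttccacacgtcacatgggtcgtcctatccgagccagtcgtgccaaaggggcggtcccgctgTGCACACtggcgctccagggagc
Mt2: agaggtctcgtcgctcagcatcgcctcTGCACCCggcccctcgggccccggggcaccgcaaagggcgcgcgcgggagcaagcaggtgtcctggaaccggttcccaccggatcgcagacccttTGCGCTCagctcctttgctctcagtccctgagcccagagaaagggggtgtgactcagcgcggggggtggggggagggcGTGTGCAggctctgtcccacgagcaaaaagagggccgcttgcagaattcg

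Immediate early genes, which neurons switch on within minutes of activity, were lower in mutant replicates 1 and 2. Of 19 tested 7 fell and none rose, beside 8.16% lower and 5.74% higher over all genes. The median was -0.45, and by array -0.60, -0.65 and -0.03. Egr2 read 3.89, 4.80 and 6.57 against 7.57, 6.64 and 6.49 (-1.81 ± 0.42, adjusted p = 0.00804). Its replicates 1 and 2 lay below every other P14 array, whose lowest value was 6.36, while replicate 3 lay within the mixed A range, so the groups overlap. Arc, a synaptic capsid-like protein induced by activity, read 6.67, 6.62 and 8.30 against 9.36, 8.57 and 8.48 (-1.60 ± 0.30, adjusted p = 0.00302). Fos read 8.08, 7.92 and 9.40 against 9.72, 9.30 and 9.17 (-0.93 ± 0.24, adjusted p = 0.0141), and Nr4a1 8.63, 8.67 and 9.27 against 9.85, 9.41 and 9.64 (-0.78 ± 0.16, adjusted p = 0.00433). Ier2 (-0.64 ± 0.19), Egr1 (-0.48 ± 0.13) and Homer1 (-0.26 ± 0.09) completed the 7. Npas4 (-0.56 ± 0.30), Junb (-0.30 ± 0.17) and Bdnf (0.02 ± 0.14) were not called. The count was 2 without mutant replicate 1, 2 without replicate 2, 14 without replicate 3, and 4, 5 and 6 without mixed A replicate 1, 2 or 3. With only the 6 arrays limma called none of them, and 10 had an unadjusted p under 0.05.

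The promoters of Fos and Egr2, a pair that fell together, are shown because the cAMP response element is a textbook route from neuronal activity to both kinds of gene. They are the 250 bases before a RefSeq start on GRCm38.p6, plus strand, at chr12:85473640-85473889 for Fos and chr10:67537619-67537868 for Egr2, where the start with a match was taken among 5 listed. Capitals mark TGACGT on either strand, 1 match in each, a motif that 6.46% of the 32817 windows hold. That share is for a single window. A choice among 5 windows, as for Egr2, finds a match more often. Neither match was tested for binding.
Fos: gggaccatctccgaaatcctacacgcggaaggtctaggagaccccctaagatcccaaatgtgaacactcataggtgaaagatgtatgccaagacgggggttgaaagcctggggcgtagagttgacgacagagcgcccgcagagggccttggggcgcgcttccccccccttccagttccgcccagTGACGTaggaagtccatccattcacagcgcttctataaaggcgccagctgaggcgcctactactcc
Egr2: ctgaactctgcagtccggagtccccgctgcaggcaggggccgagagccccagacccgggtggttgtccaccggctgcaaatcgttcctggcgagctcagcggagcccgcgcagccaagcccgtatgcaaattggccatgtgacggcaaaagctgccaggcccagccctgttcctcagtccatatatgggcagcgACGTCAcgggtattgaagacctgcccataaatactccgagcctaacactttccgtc

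**Figure D4:**
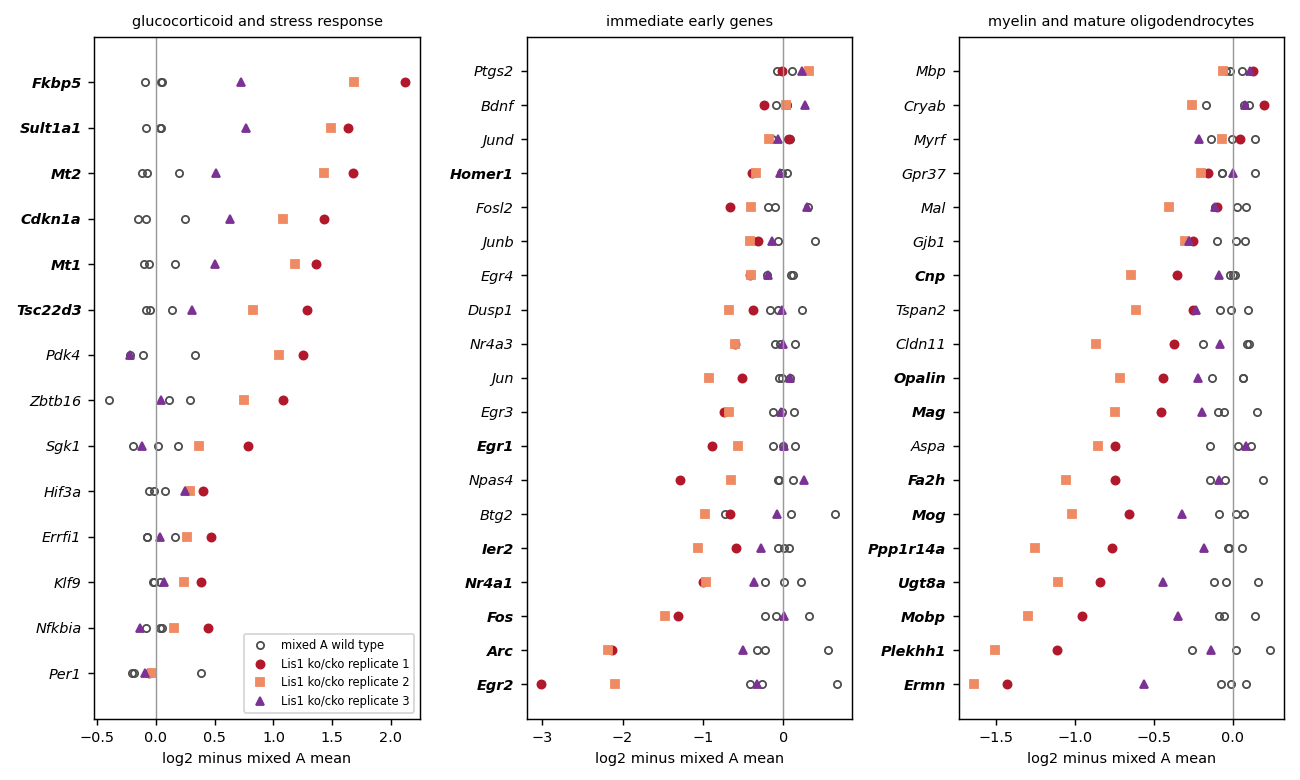
Log2 value minus the mixed A mean for the tested members of 3 gene lists, with mutant replicates as filled symbols, mixed A arrays as open circles and called genes in bold. Mutant replicates 1 and 2 lie apart from mixed A in most called genes, and replicate 3 lies between, as in Fkbp5 and Ermn, or within mixed A, as in Fos.

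Myelin genes were lower. Of 19 tested genes of mature oligodendrocytes 10 fell and none rose, beside 8.16% lower and 5.74% higher over all genes. The median was -0.46, and by array -0.45, -0.74 and -0.18. Ermn, a cytoskeletal gene of late oligodendrocytes, read 6.55, 6.34 and 7.42 against 7.97, 7.91 and 8.07 (-1.21 ± 0.28, adjusted p = 0.00873). Ugt8a, the enzyme of galactosylceramide synthesis, read 9.50, 9.23 and 9.90 against 10.30, 10.22 and 10.50 (-0.80 ± 0.15, adjusted p = 0.00333) and was called in all 6 fits with an array left out. Mobp, a structural myelin protein, read 9.17, 8.83 and 9.78 against 10.27, 10.07 and 10.04 (-0.87 ± 0.18, adjusted p = 0.00456), though it differed by 0.25 from mixed B. The myelin glycoproteins Mog (-0.67 ± 0.17) and Mag (-0.47 ± 0.15) fell, while Mbp (0.06 ± 0.09), Myrf (-0.08 ± 0.14) and Mal (-0.20 ± 0.16) were not called. Among 9 oligodendrocyte precursor genes 3 fell: Gpr17, a receptor of committed precursors, at 8.52, 8.93 and 10.07 against 10.23, 10.11 and 10.23 (-1.02 ± 0.21, adjusted p = 0.00472), the lineage factor Olig2 (-0.71 ± 0.16) and Bcas1 (-0.42 ± 0.09). Pdgfra (0.08 ± 0.06) and Cspg4 (0.42 ± 0.15), markers of cycling precursors, were not called. In Gpr17 and Olig2 replicate 3 lay closer to the controls than to the other mutant arrays. The precursor count was 1 without mutant replicate 1 or 2, 4 without replicate 3 and 3 without any mixed A array. The myelin count was 2 without mutant replicate 1, 1 without replicate 2, 13 without replicate 3, 5 without mixed A replicate 1 and 7 without mixed A replicate 2 or 3, and 0 with only the 6 arrays in limma, where 13 had an unadjusted p under 0.05. Against mixed B 6 myelin genes were lower and 4 higher, in a comparison whose median over all genes was 0.12. In whole tissue fewer oligodendrocytes and less RNA per cell cannot be told apart.

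Cell cycle genes were lower on all 3 mutant arrays. Of 21 tested 8 fell and none rose, beside 8.16% lower and 5.74% higher over all genes. The median was -0.24, and by array -0.21, -0.19 and -0.26. Top2a, the topoisomerase of dividing cells, read 5.19, 5.37 and 5.97 against 6.72, 6.66 and 6.65 (-1.17 ± 0.17, adjusted p = 0.000748). The proliferation marker Mki67 read 4.58, 4.41 and 5.41 against 6.30, 6.03 and 5.87 (-1.27 ± 0.23, adjusted p = 0.00282), and the mitotic kinase Cdk1 5.54, 5.70 and 6.05 against 6.51, 6.68 and 6.72 (-0.88 ± 0.14, adjusted p = 0.00124). In each the 3 mutant arrays lay below the 3 controls. The cyclins Ccna2 (-0.56 ± 0.12), Ccnb2 (-0.64 ± 0.18), Ccnd1 (-0.61 ± 0.15) and Ccnd2 (-0.53 ± 0.11) and the replication factor Mcm5 (-0.47 ± 0.12) made up the 8. Ccnb2 entered the test through the mixed A group alone, whose mean was just above the filter. Ccna2 read 5.63, 5.68 and 5.68 against 6.22, 6.19 and 6.24. Pcna (0.01 ± 0.07) and Mcm4 (0.00 ± 0.12) were not called. The count was 5 without mutant replicate 1 or 2, 7 or 8 without any other of the 6 arrays, and 0 with only the 6 arrays in limma, where 11 had an unadjusted p under 0.05. Of 15 radial glia and newborn neuron genes 2 rose and 2 fell. Fabp7, a fatty acid-binding protein of radial glia and immature astrocytes, read 10.63, 10.76 and 11.62 against 11.75, 11.91 and 11.99 (-0.88 ± 0.15, adjusted p = 0.00223), and Igfbpl1 of newborn neurons fell (-0.46 ± 0.13). Vim, the intermediate filament of immature and reactive glia, rose (0.64 ± 0.17), as did Neurod2 (0.39 ± 0.11). Mutant replicate 3 read 9.23 for Vim, within the controls at 8.96, 9.30 and 9.24. This count of 4 was 1 without mutant replicate 1 or 2, 7 without replicate 3, and 2, 2 and 3 without mixed A replicate 1, 2 or 3.

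Choroid plexus genes were lower than in mixed A on all 3 mutant arrays. Besides Ttr the folate receptor gene Folr1 read 5.05, 5.24 and 4.82 against 5.77, 6.46 and 6.52 (-1.21 ± 0.27, adjusted p = 0.00677). Clic6 read 4.91, 4.34 and 4.92 against 5.76, 6.11 and 6.27 (-1.32 ± 0.37, adjusted p = 0.0217). Calml4 read 4.72, 4.69 and 4.86 against 5.58, 5.72 and 5.68 (-0.90 ± 0.27, adjusted p = 0.0292), and differed by 0.05 from mixed B. Folr1 differed by -0.41 from the inbred wild type and by -0.33 from mixed B, neither called. Clic6 differed by -1.23 from the inbred wild type, which was called, and by -0.02 from mixed B. The mutant readings of Folr1, Clic6 and Calml4 all lay below the filter of 5.253, so these are dim probe sets. Of 7 tested members 4 fell and none rose, beside 8.16% lower and 5.74% higher over all genes. The median was -0.90, and by array -0.94, -0.97 and -0.80. The mean log2 level of all 13 members on the array was 4.76, 4.69 and 4.95 in the mutant and 5.56, 5.78 and 5.70 in mixed A. Choroid plexus is a separate tissue in the ventricles, and the labels do not say how much of it each sample held. In Ndel1 ko/cko, with Ttr down to 6.94 on 1 array, Folr1 read 4.65, 5.37 and 4.64. The count was 2 without mutant replicate 1 or 2, 5 without replicate 3, 3, 2 and 2 without mixed A replicate 1, 2 or 3, and 2 (Ttr and Calml4) with only the 6 arrays. With all 78 arrays in the fit it was 1. Under a stricter filter 1 member was tested, and it was called lower. Ependymal and cilia genes, whose cells line the same ventricles, did not follow: of 9 tested Tekt1 rose (0.42 ± 0.14) and the median was 0.05, and Tekt1 kept its call without mutant replicate 3 but in no fit that left out another of the 6 arrays.

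Markers of other tissues that could enter a brain sample were also followed. None of 16 meningeal and fibroblast genes was called against mixed A by limma, and 6 had an unadjusted p under 0.05. Their median was 0.24, and their mean level was 8.19, 8.52 and 8.11 in the mutant and 8.09, 8.12 and 8.16 in mixed A. Of the same 16 genes 10 were higher and 1 lower than in the inbred wild type (called higher over all genes 19.9%), 11 higher and 1 lower than in mixed B (38.4%), and 6 higher and none lower than in Lis1 ko/+ (5.16%). Of the red blood cell genes Alas2 and Bpgm were tested and neither was called, with Alas2 at 6.34, 6.94 and 7.73 against 7.32, 8.01 and 7.93. The part of these tissues in the other results was not tested.

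Astrocyte and microglial genes changed in part. Of 18 astrocyte genes 4 rose and none fell, with a median of 0.06, beside 5.74% higher and 8.16% lower over all genes. The gap junction gene Gjb6 read 10.40, 10.23 and 9.52 against 9.12, 9.12 and 9.21 (0.90 ± 0.17, adjusted p = 0.00327), the intermediate filament Gfap 10.65, 10.76 and 9.46 against 9.63, 9.68 and 9.39 (0.73 ± 0.21, adjusted p = 0.0242). Replicate 3 was above all controls for Gjb6 and within them for Gfap. Apoe (0.19 ± 0.06) and Glul (0.21 ± 0.07) rose less, and Glul differed by -0.01 from the inbred wild type and by -0.08 from mixed B. The glutamate transporter Slc1a2 (-0.09 ± 0.06) and Aldh1l1 (0.21 ± 0.10) were not called. Of 14 microglial genes 2 rose and 2 fell, to be read beside the same shares over all genes. The complement genes C1qc (9.31, 9.34 and 8.67 against 8.05, 8.40 and 8.23; 0.88 ± 0.18, adjusted p = 0.00443) and C1qb (0.65 ± 0.19) rose, while the resting-state marker Tmem119 (6.78, 6.52 and 8.01 against 7.85, 8.04 and 7.97; -0.85 ± 0.24, adjusted p = 0.0203) and Aif1 (-0.78 ± 0.19) fell. P2ry12 (-0.51 ± 0.38) and Csf1r (-0.22 ± 0.10) were not called. Without mutant replicate 1 or 2 a single gene of each of these lists was called, and without replicate 3 the calls were 7 of astrocytes and 8 of microglia. Without mixed A replicate 1, 2 or 3 they were 1, 2 and 1 of astrocytes, and 6, 3 and 1 of microglia.

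Of 17 endothelial and mural genes 4 fell and 1 rose, with a median of -0.12, beside 8.16% lower and 5.74% higher over all genes. Tek, the angiopoietin receptor, read 6.07, 6.42 and 6.68 against 7.37, 7.06 and 7.39 (-0.88 ± 0.20, adjusted p = 0.00677), and Slco1c1, a thyroid hormone transporter of the blood-brain barrier, 10.19, 10.10 and 10.66 against 10.69, 11.00 and 11.07 (-0.61 ± 0.12, adjusted p = 0.00325). The growth factor receptor Kdr (-0.46 ± 0.15) and the tight junction gene Cldn5 (-0.37 ± 0.11) fell, and the lipid transporter Mfsd2a rose (0.49 ± 0.12). The pericyte genes Pdgfrb (0.12 ± 0.23) and Rgs5 (-0.40 ± 0.22) were not called. The calls numbered 1, 2 and 8 without mutant replicate 1, 2 or 3, and 4, 3 and 3 without mixed A replicate 1, 2 or 3.

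In the endoplasmic reticulum and heat shock list 8 of 19 genes fell and 1 rose, with a median of -0.10. Over all genes 8.16% were called lower and 5.74% higher. The chaperone gene Hsph1 read 10.69, 10.62 and 11.20 against 11.46, 11.28 and 11.29 (-0.51 ± 0.10, adjusted p = 0.00332). The transcription factor Xbp1 (-0.57 ± 0.15), the chaperones Hspa5 (-0.34 ± 0.11) and Hsp90b1 (-0.34 ± 0.11), the disulfide isomerase Pdia6 (-0.48 ± 0.10), Sdf2l1, Calr and Ddit3 fell. Herpud1, a component of protein disposal from the endoplasmic reticulum, rose (9.69, 9.62 and 9.21 against 9.06, 8.97 and 9.01; 0.49 ± 0.11, adjusted p = 0.0073). The list held 1 call without mutant replicate 1 or 2, 11 without replicate 3, and 4, 5 and 5 without mixed A replicate 1, 2 or 3.

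**Figure D5:**
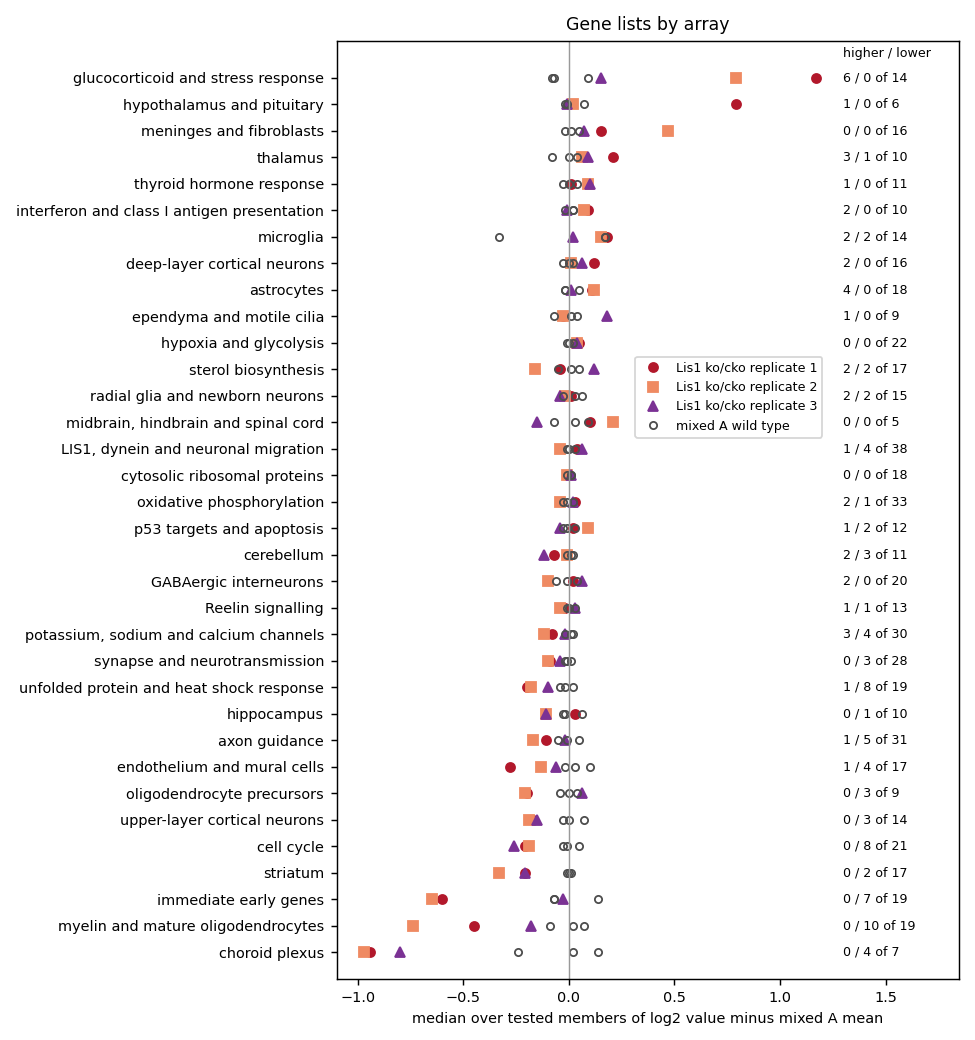
Median over the tested members of each gene list of the log2 value minus the mixed A mean, for each mutant array (filled) and each mixed A array (open), with the number of genes called higher and lower at the right. The glucocorticoid list has medians of 1.17, 0.79 and 0.15 on the 3 mutant arrays, the immediate early genes -0.60, -0.65 and -0.03, and the choroid plexus -0.94, -0.97 and -0.80.

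Neuronal lists held calls in both directions, to be read beside the 5.74% of all genes called higher and 8.16% called lower. Among upper-layer cortical genes 3 of 14 fell and none rose, with a median of -0.18. Cux2, a homeobox factor of upper layers, read 8.37, 8.10 and 8.54 against 8.71, 8.90 and 8.83 (-0.48 ± 0.09, adjusted p = 0.00376) and was called in all 6 fits with an array left out. It differed by -0.19 both from the inbred wild type and from Lis1 ko/+, without a call, and by -0.80 from mixed B, with a call. Calb1 fell by 0.27 on the log2 scale. Rorb, a layer 4 receptor, fell (-1.18 ± 0.37), but its mixed A arrays read 4.78, 6.73 and 6.59, so the groups overlap. Among 16 deep-layer genes Tshz2 (9.19, 9.07 and 8.54 against 8.28, 8.20 and 8.13; 0.73 ± 0.14, adjusted p = 0.00392) and Cplx3 (0.42 ± 0.12) rose and none fell. Ccn2, which the deep-layer list holds under its former symbol Ctgf, was not matched to it and is left out of its counts, though it was called higher (1.15 ± 0.19). In 28 synaptic genes 3 fell, a share near that of all genes, among them the kinase Camk2a (11.75, 11.90 and 11.70 against 12.30, 12.23 and 12.12; -0.43 ± 0.10, adjusted p = 0.00677) and the receptor subunit Gabrb2 (-0.45 ± 0.14). Of 30 ion channel genes 4 fell, led by Kcnj9 and by Kcnv1 (7.53, 7.18 and 8.59 against 8.91, 8.66 and 8.75; -1.01 ± 0.20), and 3 rose, among them Kcnj4 (0.52 ± 0.14). Of 31 axon guidance genes 5 fell, among them Epha3 (6.54, 6.83 and 7.34 against 7.86, 7.86 and 7.92; -0.98 ± 0.18) and Epha7 (-0.54 ± 0.12) as well as Sema7a (-0.43 ± 0.12), which differed by 0.44 from mixed B, and Slit3 rose (0.72 ± 0.22). Of 20 interneuron genes Calb2 (0.46 ± 0.13) and Cort (0.44 ± 0.14) rose and none fell. Without mutant replicate 1, 2 or 3 the calls numbered 1, 1 and 6 of upper layers, 1, 1 and 7 of synapses, 4, 3 and 7 of channels, 1, 1 and 9 of guidance and 0, 0 and 2 of interneurons. Without mixed A replicate 1, 2 or 3 they were 3, 2 and 2 of upper layers, 5, 1 and 2 of synapses, 6, 6 and 5 of channels, 4, 3 and 4 of guidance and 1, 0 and 0 of interneurons. For deep layers they were 1, 2 and 3 without the mutant replicates and 2, 1 and 1 without those of mixed A.

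The remaining regional, metabolic and stress lists differed in how many calls they held, beside 13.9% over all genes. No gene of 18 cytosolic ribosomal proteins or of 22 hypoxia and glycolysis genes was called by limma, with medians of 0.00 and 0.04 and with 1 and 6 at an unadjusted p under 0.05. Nor was any of 5 midbrain and hindbrain genes, with 0 at that p. With the probe sets of a gene averaged, 5 of the 22 hypoxia and glycolysis genes were called higher and none lower. In that fit 744 of 11432 genes were called higher. After quantile normalization 1 of the 22 was called higher and 1 lower. Of 33 oxidative phosphorylation genes Uqcrc1 (0.23 ± 0.06) and Atp5a1 (0.17 ± 0.05) rose and Ndufa1 (-0.17 ± 0.05) fell, while Atp5a1 differed by -0.02 when its probe sets were averaged. Of 17 sterol synthesis genes Hsd17b7 (0.39 ± 0.09) and Fdft1 (0.23 ± 0.07) rose, and Idi1 (-0.42 ± 0.12) and Dhcr7 (-0.32 ± 0.10) fell. Dhcr7 differed by 0.12 from the inbred wild type and by 0.47 from mixed B, and Fdft1 by -0.09 from mixed B. Of 17 striatal genes Gpr6 (-0.68 ± 0.23) and Rxrg (-0.76 ± 0.25) fell, Rxrg with a difference of 0.40 from mixed B. Of 10 thalamic genes 3 rose, led by the kinase gene Prkcd (7.94, 7.59 and 7.26 against 7.02, 6.76 and 6.87; 0.71 ± 0.14, adjusted p = 0.00422), and Nexn fell (-0.69 ± 0.23), tested through the mixed A group alone. Of 11 cerebellar genes 2 rose and 3 fell, among them Car8 (-0.86 ± 0.24) and Neurod1 (-0.52 ± 0.11), the latter also the only call among 10 hippocampal genes. Of 6 hypothalamic genes Trh rose (0.45 ± 0.14), in no fit that left out an array other than mutant replicate 3, and the list's median was 0.79 on mutant replicate 1 against 0.02 and -0.01 on the others. Of 10 interferon and antigen presentation genes the class I genes H2-D1 (0.51 ± 0.11) and H2-K1 (0.39 ± 0.11) rose. Of 12 p53 target and apoptosis genes Cdkn1a rose and Bcl2 (-0.35 ± 0.10) and Zmat3 (-0.33 ± 0.11) fell, and of 11 thyroid hormone response genes Gjb6 rose. Without mutant replicate 1 or 2 no striatal, sterol or oxidative phosphorylation gene was called by limma, with between 2 and 5 of each list at an unadjusted p under 0.05, and a single gene was called of the thalamic, cerebellar and p53 lists each.

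Against Lis1 ko/+ at P14, which also carries the null allele, Lis1 ko/cko differed in 986 of 12296 genes (8.02%), 634 higher (5.16%) and 352 lower (2.86%). Fewer genes were higher than lower after centring the arrays (529 and 680) or after quantile normalization (529 and 693), so the split rests on the scaling. With only these 2 groups in the limma fit 2 genes were called, with 1774 at an unadjusted p under 0.05. The count was 27, 30 and 2675 without mutant replicate 1, 2 or 3 and 1662, 355 and 312 without Lis1 ko/+ replicate 1, 2 or 3. Lis1 ko/+ itself differed from mixed A in 1 gene, Pafah1b1 (-0.64 ± 0.08, adjusted p = 0.0006; 0.00813% of genes). The comparisons share the Lis1 ko/cko arrays, so their values are given side by side. Of the 14 named largest rises 12 were also called higher than in Lis1 ko/+ and of the 14 named largest falls 9 were called lower, with Ttr at -4.52 ± 0.90, Stk25 at 2.57, Fkbp5 at 1.41 and Kcnj9 at -1.55. The glucocorticoid list held 6 genes higher of 14, the immediate early list 5 lower of 19, the myelin list 7 lower of 19 and the cell cycle list 5 lower of 21. The choroid plexus list held 1 lower of 7. Among lists of other cell types, 6 of 16 meningeal and fibroblast genes and 5 of 14 microglial genes were higher than in Lis1 ko/+ and none was lower, with medians of 0.34 and 0.31, and their part in the other differences was not tested.

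At P0 Lis1 ko/cko differed from mixed A in 278 of 11779 genes (2.36%), 50 higher (0.424%) and 228 lower (1.94%). The change at P14 differed from the change at P0, by the interaction term of a fit to both ages, in 820 of 12717 genes (6.45%), 499 with a more positive (3.92%) and 321 with a more negative change (2.52%). The split was 461 and 422 after quantile normalization, 493 and 457 after centring and 515 and 217 with probe sets averaged. With only the 4 groups concerned the limma fit called 10, with 2323 at an unadjusted p under 0.05, and without P14 mutant replicate 1, 2 or 3 the count was 97, 161 and 2012. Without P14 mixed A replicate 2 or 3 it was 372 and 503, without P0 mutant replicate 2 it was 368, and without P0 mixed A replicate 1 or 3 it was 1231 and 242. Of the 1709 genes called at P14, 492 had an interaction called in the same direction. The interaction contains the same P14 difference by which the 1709 were called, which favours that direction, so nothing is read from this count. Ttr read 13.72, 13.73 and 13.73 in the mutant at P0 against 13.21, 13.54 and 13.52, so its fall was seen at P14 and not at P0 (interaction -5.05 ± 1.02, adjusted p = 0.00515). Tnc, at 10.09 ± 0.19 (SD, n = 3) in the P0 mutant and 9.92 ± 0.09 in P0 mixed A, had an interaction of -1.55 (adjusted p = 0.000786). Gfap averaged 6.01 ± 0.24 in the P0 mutant and 6.79 ± 0.35 in P0 mixed A, below the control, and lay above it at P14 (interaction 1.51). Of the glucocorticoid list none of 13 genes was called at P0 by limma, with 2 at an unadjusted p under 0.05, and 5 of 14 had a called interaction, all positive. Of the immediate early list none of 15 was called at P0 by limma, with 3 at an unadjusted p under 0.05, and 5 of 19 had a negative interaction. Pafah1b1 was lower at both ages, with -0.43 ± 0.11 at P0 (adjusted p = 0.0344) and an interaction of -0.06 (adjusted p = 0.854).

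The choice of wild type changed how many genes were called. Against the inbred wild type 3572 genes were called (29.1%), 2451 higher and 1121 lower, and against mixed B 7336 (59.7%), 4718 higher and 2618 lower. Of the 1709 genes called against mixed A, 1176 were called in the same direction against the inbred wild type (68.8% of the 1709 and 32.9% of the 3572) and 1194 against mixed B (69.9% and 16.3%). The opposite sign was seen in 30 and 208 of the 1709. The 3 comparisons share the mutant arrays. Over all genes 8.16% were called lower against mixed A, 9.12% against inbred and 21.3% against mixed B. Called higher were 5.74%, 19.9% and 38.4%. The list counts that follow are to be read beside these unequal shares. The glucocorticoid list held 6 of 14 higher against mixed A, 9 against inbred and 10 against mixed B, and none lower. The immediate early list held 7, 7 and 9 of 19 lower, with 2 higher against mixed B. The cell cycle list held 8, 6 and 7 of 21 lower, with 1 higher against inbred and 2 against mixed B. Of the choroid plexus list 4, 2 and 2 of 7 were lower and none was higher.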

How the data were processed

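RNA of 78 brain samples was measured on single-colour arrays, in 26 groups of 3. The deposited values are log2 expression values of 45101 probe sets, made by the authors with RMA, per the submitters' processing notes. RMA corrects background, quantile-normalizes and summarises probes, which compresses the fold changes of dim probe sets. The notes give no version of it. Values ran from 2.606 to 14.24 with none missing. Nothing was normalized again, and depth has no meaning for arrays, so their number limits the precision.

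For each gene the brightest probe set, by the mean of the 78 arrays, was kept, among 34945 probe sets with 1 gene symbol (932 had several and 9160 none, and 64 were controls), giving 18193 genes. Genes entered a test where at least 1 group averaged 5.253 or more, the overall median value. limma 3.58.1 in R 4.3.3 fitted 1 mean per group over the 24 P14 arrays (16 residual degrees of freedom, trended variance), or over the arrays of P0 and P14 for the change with age, with Benjamini-Hochberg adjustment over all genes tested. On simulated data with 200 changed genes the P14 fit recovered 68.7% of 1.5-fold and 95.3% of 2-fold changes. Of its calls 4.85% and 4.99% were false. The fit for the change with age recovered 36.9% of 1.5-fold and 85.4% of 2-fold changes, with 6.82% and 5.11% of calls false. Whether these rates hold for a group with an array as far from the others as mutant replicate 3 was not tested.

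Groups came from the sample labels. The genes named were Pafah1b1 and 5 partners, the 14 largest rises and 14 largest falls called without overlap (clones and predicted genes passed over), up to 4 called members of each list, called neighbours of Pafah1b1 and 6 genes in which replicate 3 lay between. Other genes given as values were chosen after their values were seen. The samples, gene lists and rules were chosen with earlier results of these data known. The labels do not say whether replicate numbers pair the samples, and the main fit used no pairing. The correlation of deviations between same-numbered mutant and mixed A arrays was -0.05, 0.14 and 0.05. Between differently numbered ones it ran from -0.15 to 0.07. These values cannot exclude a pairing. Alternatives changed the filter, scaling, probe sets, samples in the fit, array weights, threshold, control group and replicate block, and left out each array in turn. Promoter sequences are from RefSeq on GRCm38.p6, and Arc and Ier2 are named only.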

Additional observations from a re-analysis of the deposited data

Results flagged for a closer look

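The change of Lis1 ko/cko against mixed A differed between P14 and P0 in 820 genes, 6.45% of those tested. The test was limma's interaction term at a Benjamini-Hochberg adjusted p under 0.05. Among the 109 named called genes 44 had such a difference. The 109 were called by their P14 difference, which the interaction contains, so nothing is read from that share. Values here are the P14 change minus the P0 change on the log2 scale, and each difference was tested in that fit. Among choroid plexus genes it was -5.05 for Ttr, -2.02 for Clic6 and -1.64 for Folr1. Among immediate early genes it was -1.85 for Egr2, -1.56 for Arc, -0.93 for Nr4a1 and -0.44 for Homer1. Genes of oligodendrocytes gave -1.50 for Plekhh1 and -0.68 for Olig2, with -1.21 for Adamts4. Dividing and immature cells gave -0.98 for Mki67, -0.93 for Top2a, -0.90 for Fabp7, -0.81 for Neurod1 and -1.55 for Tnc. Guidance genes gave -1.04 for Epha3, -0.79 for Epha7 and -0.74 for Sema7a. The other negative differences were -2.02 for Thap2, -1.80 for Kcnj9, -1.43 for Prr18, -1.35 for Pnp, -1.35 for Sh3d19, -1.33 for Aplnr, -0.80 for Zmat3 and -0.73 for Bcl2.

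Positive differences included glucocorticoid and stress genes, with 1.26 for Fkbp5, 1.32 for Mt2 and 1.12 for Cdkn1a. Glial and phagocyte genes gave 1.51 for Gfap, 1.33 for Agt, 1.16 for C1qc, 0.90 for C1qb, 1.21 for Gpnmb and 1.24 for Tlr7. Neuronal genes gave 0.83 for Tshz2, 0.99 for Rora and 0.34 for Cdk5. The rest were 2.30 for Stk25, 1.36 for Spaca6, 1.34 for Cdt1, 1.01 for Tekt1, 0.64 for Mfsd2a and 0.56 for Herpud1. In Stk25 the P0 mutant arrays read 7.79, 9.12 and 9.25, so replicate 1 lay below the P0 mixed A arrays at 8.30, 8.30 and 8.56 and the other 2 above.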

How the results depend on the processing

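The 1709 genes called against mixed A at P14 became 1456 with no filter, 1393 with a stricter one, 1699 with all 78 arrays in the fit, 2018 after quantile normalization, 1983 after centring and 1455 with probe sets averaged, which moved the split to 744 higher and 711 lower. They became 16 with only the 6 arrays, 4301 with array weights, 470 at adjusted p under 0.01, 3572 against the inbred wild type and 7336 against mixed B, and ranged from 251 to 3242 with an array left out. The 820 genes whose change differed with age became 10 with only the 4 groups and 2458 with array weights, and ranged from 97 to 2012. The 986 genes that differed from Lis1 ko/+ became 2 with only the 2 groups and 4036 with array weights, and ranged from 27 to 2675. With the replicate number as a block the counts were 1718, 802 and 979. Of 109 named genes called, 8 kept the call with only the 6 arrays, 45 without mutant replicate 1, 45 without replicate 2, 106 without replicate 3, 106 with the replicate block and 59 at adjusted p under 0.01. Against the inbred wild type 84 of the 109 kept the call, and against mixed B 83. Signs turned for Atp5a1 (-0.02) with probe sets averaged. Against the inbred wild type they turned for Dhcr7 (0.12), Glul (-0.01), Krt12 (0.48), Pla2g4e (-0.01) and Sdc4 (-0.48). Against mixed B they turned for Calml4 (0.05), Dhcr7 (0.47), Fdft1 (-0.09), Glul (-0.08), Mobp (0.25), Pla2g4e (-0.14), Rxrg (0.40), Sdc4 (-0.20), Sema7a (0.44) and Stk25 (-0.13). For array weights and for the other wild types the cause was not tested. Fits to fewer arrays estimate the spread from fewer residual degrees of freedom. A fit without an array leaves 2 in its group, and 3 arrays a group limit what small differences can be called.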

Other observations

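The following 6 genes were chosen after their values were seen and stand for no list. Cirbp, a cold-induced RNA-binding protein, read 10.16, 10.04 and 9.31 against 8.69, 8.66 and 8.80 (1.12 ± 0.17, limma adjusted p = 0.000748), above mixed A on all 3 arrays. Ciart, a repressor of the clock, read 8.23, 8.11 and 6.44 against 6.56, 6.55 and 6.34 (1.11 ± 0.27, adjusted p = 0.0109). Txnip, which is induced by glucose, read 9.44, 9.49 and 8.06 against 7.85, 7.92 and 8.11 (1.04 ± 0.27, adjusted p = 0.0133), and the clock receptor Nr1d1 8.70, 8.38 and 7.31 against 7.57, 7.53 and 7.18 (0.70 ± 0.23, adjusted p = 0.0409). In these 3 genes replicate 3 lay within the mixed A range. Cry2 rose by less (0.40 ± 0.10), and Dbp, an output gene of the clock, was not called and lay below mixed A on all 3 mutant arrays (-0.25 ± 0.09, adjusted p = 0.0708). The labels do not give the hour at which each brain was taken.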
